A study of Mus musculus with 2 samples.

Results

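The genes described here are the 46 kinetochore, spindle checkpoint, mitotic kinase, APC/C and cytokinesis genes of a fixed list of symbols. All 46 were found by symbol among the 23183 genes of each library, and the rule that lists them uses no level, although the list was drawn up with earlier results of these data known. They were divided by role into 13 inner kinetochore genes, 9 outer kinetochore genes, 5 spindle checkpoint genes, 6 genes of mitotic kinases and CDK1 control, 4 genes of the chromosomal passenger complex, 2 genes of the APC/C, 3 cytokinesis genes and 4 further genes of the spindle, the mitotic chromosomes and transcription (*Tpx2*, *Top2a*, *Mki67* and *Foxm1*).

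The study asked what restoring *Runx3*, a gene of a RUNX family transcription factor, does to *K-Ras*-activated mouse lung cancer cells. mRNA was sequenced from 1 library of KPR- cells (labelled 0 h, genotype RUNX3 -/-) and 1 library of KPR_restored cells (labelled 16 h, genotype RUNX3 -/+). The cells are described as immortalized lines from lung cancers of mice that carried *Runx3* flox/FSF, FlpERT2, Rosa26R-Tomato, *p53* flox/flox and *K-Ras* LSL-G12D/+. Cre, carried by an adenovirus with a CMV promoter and given through the nose, had switched on *K-Ras* G12D and deleted *p53* and the floxed *Runx3* allele, so both libraries share these changes. The other *Runx3* allele is held off by a Frt-Stop-Frt cassette, which FlpERT2 removes when 4-OHT, an active form of tamoxifen, is added. The labels give 1 μM 4-OHT for both libraries, although 4-OHT is what turns KPR- into KPR_restored cells in the study. How many lines or mice stand behind each library is not given in the sources used here. No replicates were analysed here, so no p-value was computed. The time, the 4-OHT treatment and the culture cannot be told apart from *Runx3* restoration.

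The kinetochore is the protein structure that joins a chromosome to spindle microtubules. Its inner layer, a set of CENP proteins, sits on centromeric chromatin marked by the histone variant CENP-A, and its outer layer, which holds the KNL1, MIS12 and NDC80 complexes, grips the microtubules. Kinetochores without microtubules feed the spindle checkpoint, which holds back the APC/C, the ubiquitin ligase that degrades cyclin B and securin, until all chromosomes are attached. Most of these genes are transcribed late in the cell cycle, so their RNA in a culture depends both on how many cells are in G2 and mitosis and on the amount per cell, and bulk RNA cannot tell these apart.

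The deposited values are FPKM, in which fragment numbers are divided by transcript length and by library depth, and levels are compared on that scale throughout. The steps between low FPKM values placed the depth near 21.7 M fragments in KPR- and near 22.4 M in KPR_restored. If the values were scaled further, these are scaled depths. Each log2 difference is log2(FPKM + 0.005) in KPR_restored minus that in KPR-, and a gene is called lower or higher when it differs by 0.5 or more. Each interval in brackets for a single gene is a 95% exact Clopper-Pearson interval made from estimated fragments. Intervals for a ratio of genes are normal approximations. Both kinds cover counting error only, not the spread between cultures. The 11231 genes whose mean FPKM over both libraries reached 1, called tested genes, serve as background, and their median log2 difference was 0.0086. *Runx3* was at 0.348 FPKM in KPR- and 0.349 FPKM in KPR_restored, with about 28 and 29 fragments behind these values. These values do not check the labels, so each direction is that of the library labelled KPR_restored against the library labelled KPR-. *Cdkn1a*, which encodes the CDK inhibitor p21, went from 14.2 to 39.6 FPKM (log2 difference 1.48, 1.34 to 1.63). *Cdkn2a* was at 206.4 and 244.3 FPKM (0.24, 0.17 to 0.31), and *Trp53*, the p53 gene, at 2.12 and 2.17 FPKM (0.034, -0.42 to 0.52). Of the 8 epithelial markers, the keratins *Krt8*, *Krt18* and *Krt19* had the highest levels, and *Epcam* and *Cdh1* were also among the tested genes. The lung markers *Sftpc* and *Scgb1a1* were listed at 0 in both. The remaining marker, *Nkx2-1*, was at 0.044 and 0.022 FPKM, from about 3 and 1 fragments.

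Among the 46 genes, 13 were lower by 0.5 or more in the library labelled KPR_restored and 0 were higher. The share lower is 28.3%, against 9.29% of the tested genes. For a difference of 0.5 or more in the other direction, the share of the tested genes is 12.1%. The median log2 difference of the 46 genes was -0.23, with a range from -0.75 (*Mki67*) to 0.32 (*Ndc80*). Of the 46, 34 lay below 0 (73.9%, against 49.0% of the tested genes). The counting interval lay below 0 for 27 genes (58.7%, against 33% of the tested genes), above 0 for 4 genes (8.7%, against 34.3%) and held 0 for 15. The genes above 0 by their interval were *Ndc80*, *Dsn1*, *Cenpt* and *Ube2c*. All 46 genes are among the tested genes, and 38 were above the median tested gene in KPR-. The estimated fragments ran from 147 and 142 (*Cenpp*) to 21598 and 13268 (*Mki67*), so the intervals differ in width. The FPKM of the 46 genes summed to 2273 in KPR- and to 1945 in KPR_restored. Near the threshold, 5 of the 13 lower genes lay within 0.1 of it, and *Cenpm*, at -0.49, lay within 0.1 on its other side. The exons of 15 of the 46 genes overlap those of another annotated gene, on the same strand in *Foxm1* and *Top2a*, so reads there could count for either gene.

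**Figure D1:**
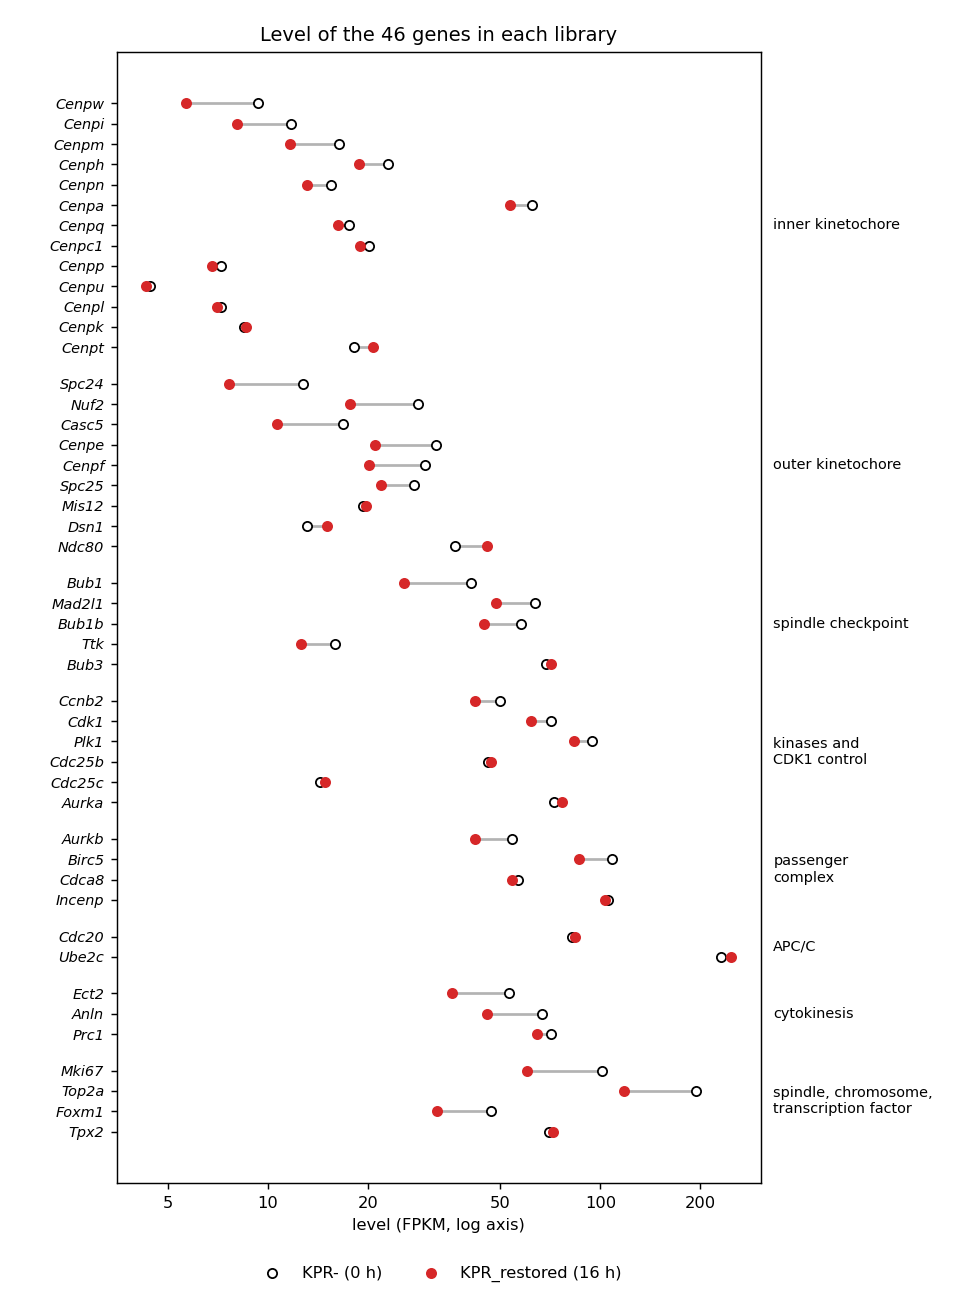
Level of each of the 46 genes in the KPR- library (open points) and the KPR_restored library (filled points), in FPKM on a log axis, grouped by role, with 1 library per condition. *Cenpu* has the lowest level in KPR- (4.43 FPKM) and *Ube2c* the highest (230.2 FPKM). The filled point lies to the left in 34 of 46 genes, against 49.0% of the tested genes with a difference below 0.

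The promoters of 6 of the genes are shown because they differ in the cell cycle elements they hold. The cell cycle homology region (CHR) and the CCAAT box are short elements known from promoters of G2 and mitosis genes, which the DREAM complex, MuvB with B-Myb and FoxM1, and NF-Y are known to use. Shown are 2 lower genes, *Top2a* and *Cenpw*, 2 genes that were not lower, *Ube2c* and *Cdc20*, and the NDC80 partners *Nuf2* and *Ndc80*, which differ in direction. These 6 were chosen after their values were seen. Each sequence is the 250 bases before the RefSeq start site on the gene's strand, 5′ to 3′ (GRCm38.p6). Capitals mark CHR letters (TTTGAA or TTTAAA) and CCAAT, each on either strand. *Top2a* is from chr11:99024190-99024439 (minus strand), *Cenpw* from chr10:30200541-30200790 (minus strand), *Ube2c* from chr2:164769679-164769928 (plus strand), *Cdc20* from chr4:118437344-118437593 (minus strand), *Nuf2* from chr1:169531465-169531714 (minus strand), and *Ndc80* from chr17:71526858-71527107 (minus strand).
Top2a: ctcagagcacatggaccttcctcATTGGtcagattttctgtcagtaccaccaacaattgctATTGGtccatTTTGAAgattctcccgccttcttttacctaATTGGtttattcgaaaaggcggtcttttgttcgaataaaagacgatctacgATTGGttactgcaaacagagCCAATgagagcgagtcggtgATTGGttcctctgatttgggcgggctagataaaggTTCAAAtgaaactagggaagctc
Cenpw: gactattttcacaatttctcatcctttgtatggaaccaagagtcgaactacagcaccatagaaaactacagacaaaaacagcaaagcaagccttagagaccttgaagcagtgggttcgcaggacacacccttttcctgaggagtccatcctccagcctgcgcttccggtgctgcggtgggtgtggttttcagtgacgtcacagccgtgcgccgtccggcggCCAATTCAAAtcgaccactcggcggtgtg
Ube2c: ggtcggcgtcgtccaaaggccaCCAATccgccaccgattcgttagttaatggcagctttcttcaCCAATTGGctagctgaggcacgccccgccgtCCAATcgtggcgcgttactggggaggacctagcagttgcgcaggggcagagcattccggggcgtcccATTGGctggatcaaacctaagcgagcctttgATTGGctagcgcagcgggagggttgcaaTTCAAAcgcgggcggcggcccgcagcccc
Cdc20: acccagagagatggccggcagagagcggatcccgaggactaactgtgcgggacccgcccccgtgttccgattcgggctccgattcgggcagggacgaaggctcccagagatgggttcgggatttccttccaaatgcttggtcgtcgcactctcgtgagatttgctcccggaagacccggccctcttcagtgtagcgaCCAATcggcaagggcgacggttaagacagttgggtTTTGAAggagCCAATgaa
Nuf2: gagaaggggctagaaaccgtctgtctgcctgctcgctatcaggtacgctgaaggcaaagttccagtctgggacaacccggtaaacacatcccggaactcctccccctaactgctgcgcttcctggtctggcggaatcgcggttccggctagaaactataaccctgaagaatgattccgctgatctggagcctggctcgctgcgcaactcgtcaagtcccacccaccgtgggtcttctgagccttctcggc
Ndc80: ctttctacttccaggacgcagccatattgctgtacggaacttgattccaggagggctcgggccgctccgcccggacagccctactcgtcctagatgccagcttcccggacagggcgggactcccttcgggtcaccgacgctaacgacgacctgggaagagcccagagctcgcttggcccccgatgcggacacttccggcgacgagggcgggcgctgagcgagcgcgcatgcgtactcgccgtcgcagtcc

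The *Top2a* sequence holds CHR letters at -23 and at -179 and CCAAT letters at 6 places, and *Ube2c*, which was not lower, also holds CCAAT letters at 6 places. *Cenpw* holds CHR letters at -25, *Ube2c* at -29 and *Cdc20* at -18, counted from the start site to the first base of the match. In GENCODE M21 *Ube2c* begins at 164769898, and the minus-strand genes *Cenpw* and *Cdc20* begin at 30200560 and 118437352. Each of these starts lies within the sequence shown, so these positions depend on the start used. Between *Cenpw*, which was lower, and *Cdc20*, which was not, both kinds of letters were thus present in each. The *Nuf2* and *Ndc80* sequences hold neither. *Ndc80* has CHR letters only after its start, at 23 and 30, and these are not shown. A RefSeq promoter, here the 250 bases before to the 50 bases after a start, was found for 40 of the 46 genes and not for *Spc24*, *Cdc25c*, *Aurkb*, *Incenp*, *Tpx2* and *Foxm1*. CHR letters were in 27 of 40 promoters (67.5%), against 22.0% of 8880 tested genes and 30.6% of all 27025 genes with a promoter. CCAAT was in 31 of 40 (77.5%), against 43.4% of the tested genes. CHR letters and CCAAT were together in 22 of 40 (55.0%), against 9.09% of the tested genes. A GC box (GGGCGG) was in 33 of 40 (82.5%), against 71.5% of the tested genes. RUNX letters (TGTGGT or TGCGGT) were in 9 of 40 (22.5%), against 24.1% of the tested genes. Of the genes with a promoter, 8 of 11 lower genes (72.7%) and 19 of 29 other genes (65.5%) held CHR letters. CCAAT was in 8 of 11 (72.7%) and 23 of 29 (79.3%), and RUNX letters were in 3 of 11 (27.3%) and 6 of 29 (20.7%). The shares of lower and other genes with these letters were thus near each other at these small numbers. A match of letters is a description of the sequence, and binding was not measured in these libraries.

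The inner kinetochore genes had 2 of 13 lower by 0.5 or more, at levels from 4.43 to 62.3 FPKM in KPR-. That count stands against 9.29% of the tested genes, and the call of *Cenpi* was lost with a pseudocount of 1 and with the gene span trend removed. The median log2 difference of the 13 genes was -0.11, and -0.20 with the transcript length trend removed. Their FPKM summed to 221 in KPR- and 194 in KPR_restored. *Cenpw*, whose protein pairs with CENP-T through a histone fold, lies on chromosome 10 from 30194569 to 30200560. It was at 9.32 FPKM in KPR- and 5.67 FPKM in KPR_restored, a log2 difference of -0.72 (-1.001 to -0.43) from about 267 and 168 fragments. *Cenpi*, a subunit of the CENP-HIKM group that helps to place CENP-A, was at 11.8 and 8.06 FPKM, a log2 difference of -0.54 (-0.70 to -0.38). These are the lower genes of this layer. *Cenpa* itself, the histone variant that marks the centromere, was at 62.3 and 53.5 FPKM, a log2 difference of -0.22 (-0.32 to -0.12), under the threshold. With the shortest coding transcript in place of the longest, its interval was -0.51 to 0.071 and held 0. *Cenpc1*, which links CENP-A chromatin to the outer layer, was at 20.1 and 18.9 FPKM (-0.091, -0.20 to 0.022). The highest difference of the layer was that of *Cenpt*, whose protein recruits the NDC80 complex along a route of its own. It was at 18.2 and 20.8 FPKM, a log2 difference of 0.19 (0.034 to 0.34). *Cenpk* came next at 8.46 and 8.62 FPKM (0.026, -0.25 to 0.31). The other genes, *Cenph*, *Cenpl*, *Cenpm*, *Cenpn*, *Cenpp*, *Cenpq* and *Cenpu*, lay between -0.49 and -0.035, and the intervals of *Cenpl*, *Cenpp*, *Cenpq* and *Cenpu* held 0. The exons of *Cenpu* overlap those of *Primpol* over 1069 bases on the opposite strand, and *Primpol* was at 3.91 and 5.29 FPKM (0.44). Whether the counting used strand is not given in the sources used here. The part of *Primpol* in the *Cenpu* values was not tested.

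The outer kinetochore genes had 5 of 9 lower by 0.5 or more, against 9.29% of the tested genes, with a median log2 difference of -0.56. *Spc24*, which with SPC25 anchors the NDC80 complex to the inner layer, lies on chromosome 9 from 21755442 to 21760303. It was at 12.7 FPKM in KPR- and 7.65 FPKM in KPR_restored, a log2 difference of -0.73 (-0.997 to -0.47). *Nuf2*, the partner of NDC80 in the arm that binds microtubules, lies on chromosome 1 from 169497934 to 169531464. It was at 28.3 and 17.6 FPKM, a log2 difference of -0.68 (-0.81 to -0.56). *Casc5*, named *Knl1* in newer annotation, encodes the scaffold on which BUB1 and BUB3 dock, and it was at 16.8 and 10.7 FPKM (-0.66, -0.75 to -0.56). The 2 large microtubule-associated proteins of this layer had like differences. *Cenpe*, a kinesin that moves chromosomes along microtubules, was at 32.1 and 20.9 FPKM (-0.62, -0.68 to -0.55). *Cenpf* was at 29.7 and 20.1 FPKM (-0.56, -0.61 to -0.51).

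The other outer kinetochore genes were not lower by 0.5. *Ndc80*, which encodes the main microtubule-binding subunit and lies on chromosome 17 from 71496100 to 71526857, was at 36.6 FPKM in KPR- and 45.7 FPKM in KPR_restored. Its log2 difference of 0.32 (0.22 to 0.41), from about 1583 and 2038 fragments, was the highest of the 46 genes. *Dsn1*, a subunit of the MIS12 complex, was at 13.1 and 15.0 FPKM (0.20, 0.029 to 0.37). *Mis12* was at 19.3 and 19.7 FPKM (0.026, -0.090 to 0.14), and its exons overlap those of *Derl2* on the opposite strand. *Spc25* was at 27.4 and 21.9 FPKM (-0.32, -0.48 to -0.17). *Ndc80*, *Nuf2* and *Spc24* have no exon that overlaps another annotated gene.

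The proteins of the NDC80 complex act in equal numbers, and the RNA ratios of its genes differed between the libraries. *Ndc80* was at 1.29 times the FPKM of *Nuf2* in KPR- and at 2.59 times in KPR_restored. This ratio differed by 1.00 on the log2 scale (counting interval 0.85 to 1.16). *Ndc80* was at 2.88 times the FPKM of *Spc24* in KPR- and at 5.97 times in KPR_restored (1.05, 0.78 to 1.33). For the histone-fold partners *Cenpt* and *Cenpw* the ratio was 1.95 in KPR- and 3.67 in KPR_restored (0.91, 0.59 to 1.23). These pairs were chosen after their values were seen, and their intervals are normal approximations that cover counting error only. Over 8 textbook complexes, likewise chosen with the values known, each with its subunits from the 46 genes and the further lists, the gap between the lowest and the highest subunit ran from 0.20 (CENP-LN) to 1.05 (NDC80). These gaps compare subunits picked by their values and are a description only.

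**Figure D2:**
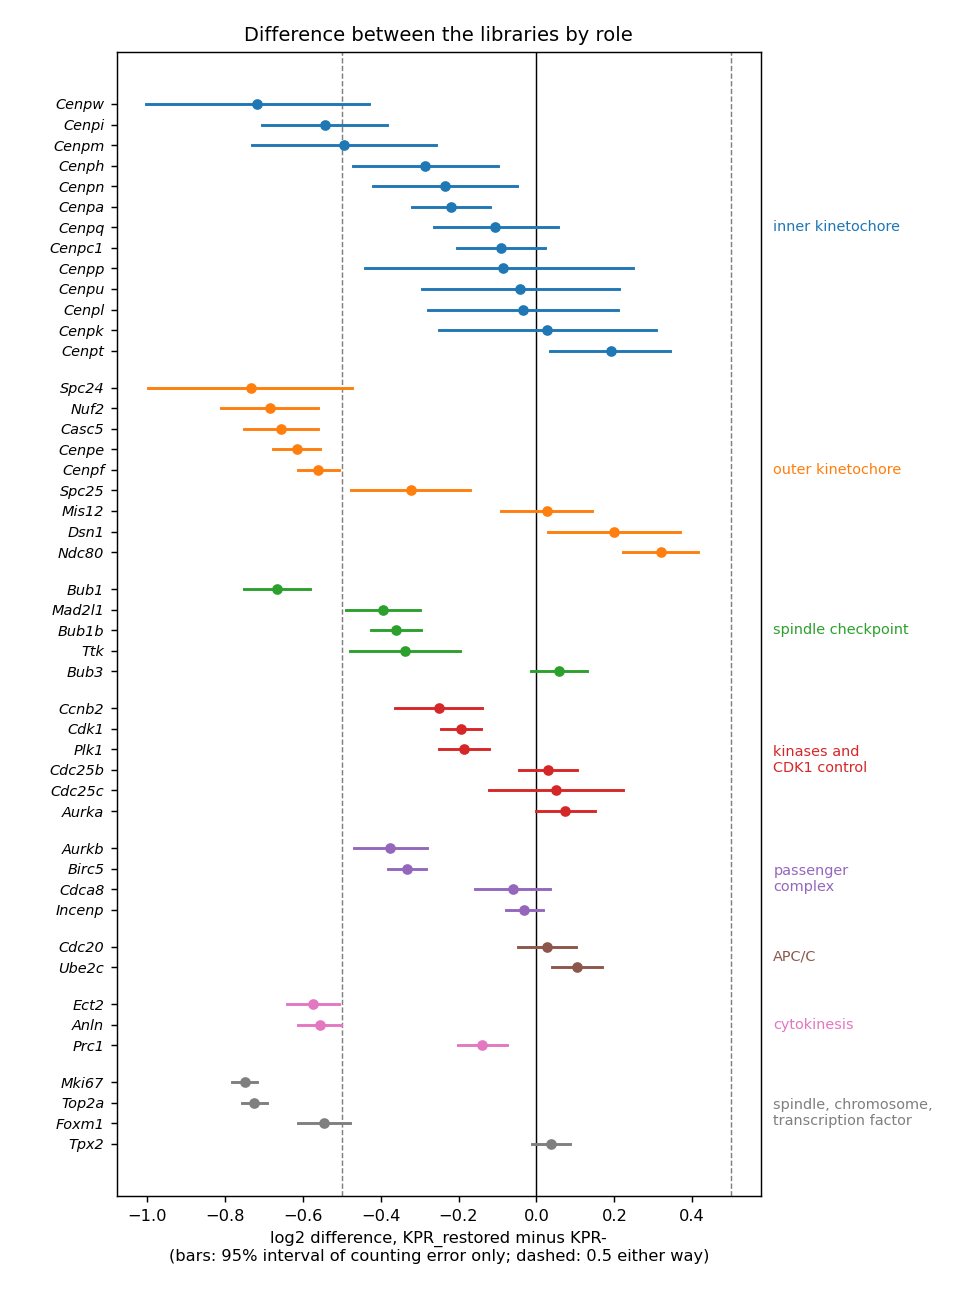
Log2 difference in FPKM, KPR_restored minus KPR-, of each of the 46 genes by role, with 95% counting intervals as bars and the threshold of 0.5 either way as dashed lines. The outer kinetochore holds both the highest value (*Ndc80*, 0.32) and 5 genes past -0.5. No gene of the passenger complex, the APC/C or the mitotic kinase and CDK1 control group passes the threshold in this grouping. The kinase gene *Bub1* stands with the checkpoint here. Of all tested genes, 9.29% were lower and 12.1% higher by 0.5 or more, so groups this small can hold no such gene at those shares.

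The spindle checkpoint genes had 1 of 5 lower by 0.5 or more, *Bub1*, against 9.29% of the tested genes, and a median log2 difference of -0.36. A count of 1 in so few genes is near that share. *Bub1*, a kinase that marks centromeric histone H2A and recruits other checkpoint proteins, lies on chromosome 2 from 127801122 to 127831865. It was at 40.8 FPKM in KPR- and 25.7 FPKM in KPR_restored, a log2 difference of -0.67 (-0.75 to -0.58). Next were *Mad2l1* and *Bub1b*, which encode the MAD2 and BUBR1 proteins that bind CDC20 in the mitotic checkpoint complex. *Mad2l1* was at 63.6 and 48.5 FPKM (-0.39, -0.49 to -0.30). *Bub1b* was at 57.5 and 44.8 FPKM (-0.36, -0.43 to -0.30). *Ttk*, the MPS1 kinase that starts checkpoint signalling, was at 15.9 and 12.6 FPKM (-0.34, -0.48 to -0.20). The interval of these 4 genes lay below 0. *Bub3*, which carries BUB1 and BUBR1 to KNL1, was at 68.5 and 71.3 FPKM (0.058, -0.015 to 0.13). The ratio of *Bub3* to *Bub1* was 1.68 in KPR- and 2.77 in KPR_restored, a log2 difference of 0.72 (0.61 to 0.84). These are the genes with the highest and the lowest difference of this group, chosen after their values were seen. The interval of this ratio is a normal approximation.

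The mitotic kinase and CDK1 control genes had 0 of 6 past the threshold, against 9.29% of the tested genes lower and 12.1% higher. Their median log2 difference was -0.079, or -0.14 with the gene span trend removed. The count and the median rest on the grouping, since with the kinase genes *Aurkb*, *Ttk* and *Bub1* added the median was -0.19 and *Bub1* was past the threshold. *Cdk1*, the kinase that drives entry into mitosis, was at 71.0 FPKM in KPR- and 62.1 FPKM in KPR_restored (-0.19, -0.25 to -0.14). Its partner *Ccnb2*, a B-type cyclin, was at 49.9 and 42.0 FPKM (-0.25, -0.36 to -0.14). *Plk1*, the polo kinase of centrosomes and kinetochores, was at 94.6 and 83.1 FPKM (-0.19, -0.25 to -0.12). These 3 genes were below 0 by their intervals, by less than the threshold. Of the CDC25 phosphatases, which remove the inhibiting phosphates from CDK1, those among the 46 genes had intervals that held 0. *Cdc25b* was at 45.9 and 46.8 FPKM (0.029, -0.045 to 0.10). *Cdc25c* was at 14.4 and 14.9 FPKM (0.050, -0.12 to 0.22). *Cdc25a*, which is not among the 46, was at 16.6 and 13.2 FPKM (-0.33, -0.45 to -0.21), so its interval lay below 0. *Aurka*, which encodes the Aurora A kinase of the spindle poles, was at 72.7 and 76.5 FPKM (0.074, -0.0020 to 0.15).

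The 4 genes of the chromosomal passenger complex, which corrects wrong attachments at the centromere and later acts at the midzone, were all below 0 by less than 0.5. Of the tested genes, 49.0% were below 0 and 9.29% were lower by 0.5 or more. Their median log2 difference was -0.20, or -0.060 without *Aurkb*. *Aurkb*, its Aurora B kinase, was at 54.3 FPKM in KPR- and 41.9 FPKM in KPR_restored (-0.37, -0.47 to -0.28). *Birc5*, which encodes survivin, was at 108.6 and 86.3 FPKM (-0.33, -0.38 to -0.28). The scaffold genes differed less. *Cdca8*, which encodes borealin, was at 56.7 and 54.4 FPKM (-0.060, -0.16 to 0.036). *Incenp* was at 105.3 and 103.1 FPKM (-0.031, -0.079 to 0.018). The ratio of *Incenp* to *Aurkb* was 1.94 in KPR- and 2.46 in KPR_restored (0.34, 0.24 to 0.45). That of *Aurka* to *Aurkb* was 1.34 and 1.83 (0.45, 0.33 to 0.57). These pairs were chosen after their values were seen, *Incenp* and *Aurkb* being the highest and the lowest of the complex. The intervals of these ratios are normal approximations.

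The 2 APC/C genes of the list were not past the threshold, against 9.29% of the tested genes lower and 12.1% higher. Their median log2 difference was 0.066, but -0.0064 with the transcript length trend and -0.035 with the gene span trend removed. *Cdc20*, the coactivator that the checkpoint holds back, was at 82.2 FPKM in KPR- and 83.7 FPKM in KPR_restored (0.026, -0.048 to 0.10). *Ube2c*, the ubiquitin-conjugating enzyme that starts chains for the APC/C, had the highest level of the 46 genes, at 230.2 and 247.5 FPKM (0.10, 0.041 to 0.17). The exons of *Ube2c* overlap those of *Tnnc2* over 592 bases on the opposite strand, and *Tnnc2* was listed at 0 in both libraries.

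In cytokinesis 2 of 3 genes were lower by 0.5 or more, against 9.29% of the tested genes. *Ect2*, which activates RhoA at the division plane, was at 53.1 FPKM in KPR- and 35.7 FPKM in KPR_restored (-0.57, -0.64 to -0.51). *Anln*, which encodes anillin, the scaffold of the contractile ring, was at 66.9 and 45.5 FPKM (-0.56, -0.61 to -0.50). *Prc1*, which bundles the microtubules of the midzone, was at 70.8 and 64.3 FPKM (-0.14, -0.20 to -0.076), and its exons overlap those of *Rccd1* over 911 bases on the opposite strand.

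*Mki67*, *Top2a* and *Foxm1* were lower and *Tpx2* was not, against 9.29% of the tested genes lower. *Mki67*, which encodes the proliferation marker Ki-67 that coats mitotic chromosomes, lies on chromosome 7 from 135689784 to 135716361. It was at 101 FPKM in KPR- and 60.1 FPKM in KPR_restored, a log2 difference of -0.75 (-0.78 to -0.72) and the lowest of the 46 genes. *Top2a*, the topoisomerase that untangles sister chromatids, lies on chromosome 11 from 98992943 to 99024189, and it was at 194 and 118 FPKM (-0.72, -0.76 to -0.69). *Foxm1*, the transcription factor of many G2 and mitosis genes, was at 47.0 and 32.2 FPKM (-0.55, -0.61 to -0.48). *Tpx2*, which builds spindle microtubules and activates Aurora A, was at 70.1 and 71.9 FPKM (0.038, -0.012 to 0.087), so both it and its partner *Aurka* had intervals that held 0.

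Most of the genes with the longest transcripts were lower, and the lower genes had a lower median GC content than the others. Length here is that of the longest transcript, not the span of the gene. Of the 10 genes with a longest transcript of at least 4000 bases, 8 were lower by 0.5 or more (80.0%), against 13% of tested genes of that length, and of the 36 shorter genes 5 were (13.9%, against 7.46%). All 4 genes of at least 6000 bases, *Cenpe*, *Cenpf*, *Casc5* and *Mki67*, were lower, against 16.2% of tested genes of that length. No gene of the 46 was higher at any length, against 6.92% of tested genes of at least 4000 bases, 5.53% of those of at least 6000 bases and 14.5% of those under 4000 bases. The median log2 difference was -0.57 in the longer genes and -0.12 in the shorter ones, against -0.11 and 0.059 in tested genes of those lengths. Across the 46 genes, Pearson's r of the difference with log10 transcript length was -0.425 and Spearman's rho was -0.341, and across 11142 tested genes they were -0.168 and -0.219. These are descriptions across genes, which are not independent replicates. The GC content of the longest transcript had a median of 43.0% in the 13 lower genes, 47.8% in the 33 others and 50.3% in the tested genes. Of the 17 genes with a GC content under 44%, 9 were lower, against 10% of tested genes of that GC content. When the length trend of the tested genes was subtracted, 10 genes were lower by 0.5 or more. Of these 9 were among the 13, *Cenpm* was added, and *Anln*, *Cenpe*, *Cenpf* and *Foxm1* were lost. After this subtraction *Spc24* was at -0.82, *Cenpw* at -0.81 and *Nuf2* at -0.73, ahead of *Top2a* at -0.64 and *Mki67* at -0.52, whereas *Ndc80* was at 0.25. When the trend with GC content was subtracted instead, 14 genes were lower, the 13 and *Cenpm*.

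**Figure D3:**
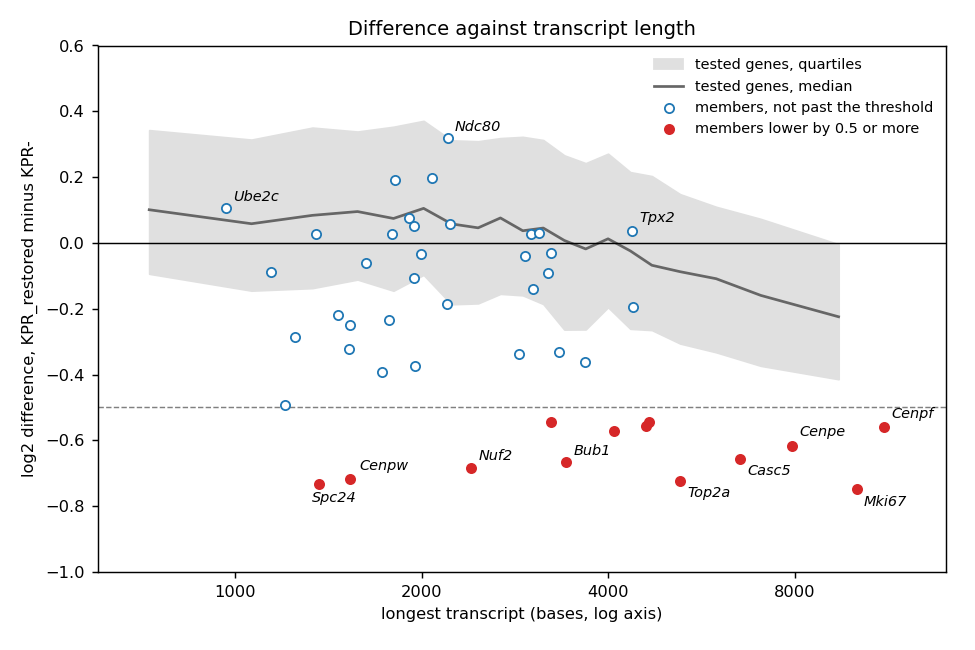
Log2 difference in FPKM, KPR_restored minus KPR-, against the length of the longest transcript (bases, log axis) of the 46 genes, with the running median and quartiles of tested genes. Lower genes (filled) make up 8 of the 10 genes with a transcript of at least 4000 bases. *Spc24*, *Cenpw* and *Nuf2* are genes with shorter transcripts that lie below the grey band.

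Other genes of the same machinery were read from 7 further lists, all of whose genes are among the tested genes. Their counts stand against the 9.29% of tested genes lower and 12.1% higher by 0.5 or more, and the counts of 1 or 2 genes given here lie within about 1 gene of them. Of 20 further kinetochore genes 4 were lower and 0 were higher, with a median log2 difference of -0.21. The 2 lowest were *Apitd1*, which encodes the CENP-S subunit, at 10.6 and 6.25 FPKM (-0.76), and *Hjurp*, the chaperone that loads CENP-A, at 6.83 and 4.18 FPKM (-0.71). Of 20 cohesin and condensin genes, which hold and compact chromatids, 6 were lower and 0 higher (median -0.38), led by *Stag1* (14.8 and 8.58 FPKM, -0.78) and *Smc2* (38.7 and 23.3 FPKM, -0.73). Of 11 further cytokinesis genes 2 were lower and all 11 were below 0, against 49.0% of the tested genes (median -0.34). The lowest were *Kif14* at 6.46 and 3.75 FPKM (-0.79) and *Cit*, the citron kinase, at 8.65 and 5.07 FPKM (-0.77). Of 16 further G2 and mitosis kinase, cyclin and CDK1 regulator genes 2 were lower (median -0.24), *Ccnf* at 41.1 and 26.7 FPKM (-0.62) and *Ccna2* at 85.8 and 58.5 FPKM (-0.55).

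In the remaining lists the counts past the threshold were near these shares or under them. Of 17 APC/C subunits and regulators 1 was lower, *Anapc1*, the largest subunit, at 34.6 and 23.6 FPKM (-0.55), and the median of 0.0077 was near that of the tested genes. Of 9 further checkpoint and cohesion protection genes 1 was higher, *Mad2l1bp*, whose protein p31comet takes MAD2 out of the checkpoint complex, at 14.1 and 20.99 FPKM (0.58). Their median was -0.036. Of 12 DREAM and MuvB genes 1 was lower, *Tfdp1*, the E2F partner, at 75.04 and 52.1 FPKM (-0.53), and 1 was higher, the MuvB subunit *Lin37* at 12.5 and 21.1 FPKM (0.75). The median of this list was -0.25.

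**Figure D4:**
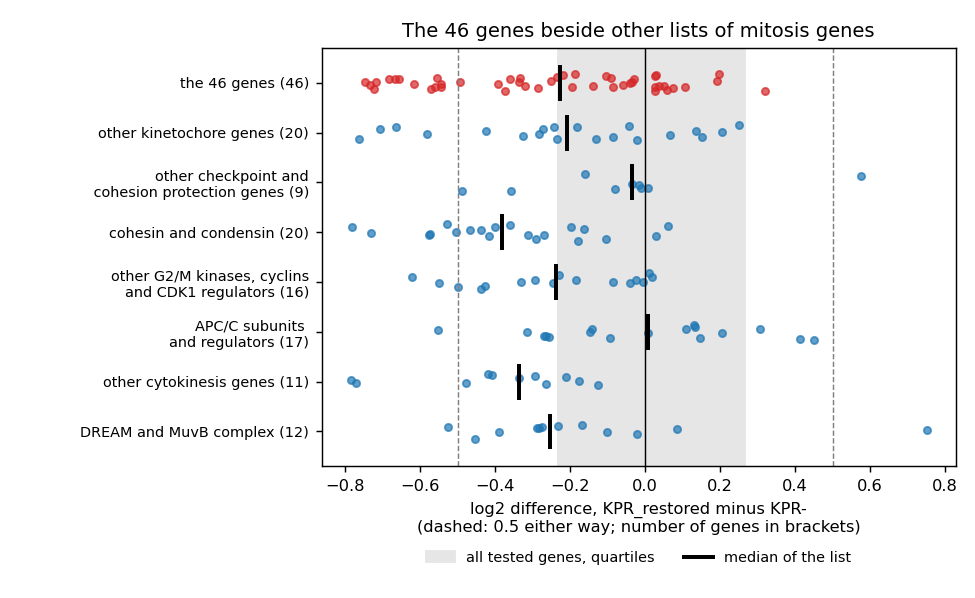
Log2 difference in FPKM, KPR_restored minus KPR-, of the 46 genes and of 7 other lists of mitosis genes, 1 point per gene, with the median of each list as a bar and the quartiles of all tested genes in grey. The medians of the cohesin and condensin list (-0.38) and of the cytokinesis list (-0.34) lie below that of the 46 genes (-0.23), and the APC/C list lies at 0.0077.

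Markers of epithelial cells and of other cell types were read beside these results. The 8 epithelial markers summed to 4881 FPKM in KPR- and 4625 FPKM in KPR_restored, with 2 of the 8 listed at 0 in both. They did not share a direction, since the log2 difference was -0.20 for both *Krt18* and *Epcam*, -0.069 for *Krt8*, 0.11 for *Krt19* and 0.13 for *Cdh1*. The 8 mesenchymal and fibroblast markers summed to 1790 and 1469 FPKM, most of it *Vim*, and *Col1a1* was at 12.2 and 4.21 FPKM. The rest were under 1 FPKM in both. Among them *Dcn*, at 0.17 and 0.74 FPKM (2.07, 0.76 to 3.64), and *Pdgfra*, at 0.27 and 0.36 FPKM (0.40, -0.20 to 1.06), went the other way. This list did not share a direction either. The 8 leukocyte markers summed to 82.5 and 95.9 FPKM, most of it *Cd14*, with 3 of the 8 listed at 0 in both. Among the other leukocyte markers *Cd68* was at 3.08 and 6.78 FPKM (1.13, 0.72 to 1.58) and *Csf1r* at 2.68 and 1.19 FPKM (-1.17, -1.54 to -0.83), in opposite directions. The 5 endothelial markers summed to 1.19 and 2.24 FPKM, most of it *Kdr*. The part of other cell types in the differences of the 46 genes was not tested.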

How the data were processed

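Total RNA of KPR- and KPR_restored cells was poly(A)-selected, and directional libraries were sequenced in pairs. The authors trimmed the reads, mapped them using TopHat to mm10 (submitters' processing notes) and deposited 1 FPKM value per gene, made using Cufflinks, for 23183 genes of each library. The paper also names a geometric normalization of read counts with EdgeR, and whether it scaled the deposited values was not tested. Versions, the annotation and the use of strand in counting are not given in the sources used here.

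Log2 differences were taken from log2(FPKM + 0.005). Transcript lengths and positions came from GENCODE M21 on GRCm38 (22156 symbols matched directly, 666 through a synonym). Depth and a mean fragment length of 211 bases were fitted to low FPKM values: 78.0% and 79.7% of those with 0.5 to 5.5 estimated fragments lay within 0.1 of a whole number, against 20% by chance. The longest transcript was used, so fragments are upper estimates for genes with several transcripts. Intervals of single genes are exact Clopper-Pearson limits, and those of ratios are normal approximations. FPKM totals were 521340 and 523647. The length trend is the running median of tested genes over 20 length bins. Promoters came from RefSeq tables, and motifs were searched on both strands.

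The 46 genes, the lists and the thresholds were chosen with earlier results of these data known. All 46 genes are named, with full values for the 2 lowest and 2 highest of each role, and of each other list the 2 lowest and 2 highest past 0.5. *Cdc25a* is given beside its family. Alternatives were other pseudocounts, a filter on level, 3 other scalings, a threshold of 1, trends removed and other groupings. The depth fit and intervals were tested on simulated data. The work was done in Python 3.11.15 with scipy 1.17.1, matplotlib 3.10.9, pandas 2.3.3 and numpy 2.4.6.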

Additional observations from a re-analysis of the deposited data

How the results depend on the processing

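With 1 library per condition, counting intervals are the only error available, and the spread between cultures is unknown. No paired analysis was possible because each condition has 1 library. Under the alternatives at the threshold of 0.5, 10 to 14 of the 46 genes were lower and 0 were higher, and the median log2 difference ran from -0.31 to -0.21. At a threshold of 1 the number lower was 0. Removing the transcript length trend moved the median of the outer kinetochore genes to -0.41, that of *Tpx2*, *Top2a*, *Mki67* and *Foxm1* to -0.50 and that of the APC/C genes to -0.0064, by the construction of that trend. Placing *Aurkb*, *Ttk* and *Bub1* among the mitotic kinases moved the kinase median to -0.19 and the passenger complex median to -0.060, by changed membership. Removing the trend with gene span, added after seeing the data, moved the passenger complex median to -0.28 and the APC/C median to -0.035, and the cause was not tested. Of the values of single genes under alternatives, 390 stayed within the width that counting error allows, 23 moved by more and 0 genes past the threshold changed sign.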
